A study of Mus musculus with 18 samples.

Results

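Hepatokines are proteins that the liver secretes and that act on metabolism in the liver itself and in other organs. The 9 hepatokine genes described here were chosen by gene symbol as Enho, Fgf21, Gdf15, Fetub, Ahsg, Angptl4, Angptl8, Selenop and Lect2. All 9 were found among the 54532 genes of the deposited liver RNA-seq table, and all 9 were among the 10216 genes with a mean of at least 1 FPKM (fragments scaled to gene length and library size) that were tested. The study asked how SZ-A, an alkaloid preparation from mulberry twig that contains 1-deoxynojirimycin, changed the fatty liver of mice on a high-fat diet (HFD). Liver mRNA was sequenced in 18 mice, with 6 in each group. The methods state an overnight fast before the tissues were taken, so the levels here are those of fasted mice. All were male C57BL/6J mice (strain label C57BL/6) that were 6 weeks old at the start. The NC mice ate normal chow and received no SZ-A. The HFD mice ate the HFD for 14 weeks and were then given saline, and the SZ-A mice ate the same diet for 14 weeks and were then given SZ-A, both with the diet continued. The length of treatment is 8 weeks in the deposited text and 6 weeks in the methods, and neither source gives the dose or route of the sequenced mice.

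The libraries held 17163191 to 20493907 fragments on genes per mouse. The mouse NC6 is titled as a chow mouse but carries a diet label of high-fat diet. It was kept in NC by its title, and results that changed without it are given both ways. Each sample is a whole piece of liver, so fewer cells of a type and less RNA per cell cannot be told apart. The labels number the mice within groups but name no litter, cage or batch. The hepatocyte markers Alb, Apoa1, Apoa2, Ttr, Serpina1a, Tat, Cps1, Cyp2e1 and Hnf4a were present in every group, with a summed level of 39000 to 76400 FPKM per mouse.

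The members have different roles. Enho encodes adropin, a small peptide linked to fuel use, and its liver expression is known to respond to diet and to nuclear receptors such as LXR. FGF21 and GDF15 are stress hormones: FGF21 signals through FGF receptors with the co-receptor beta-Klotho (Klb), GDF15 signals through GFRAL in the hindbrain, and both genes are targets of ATF4 in the integrated stress response, while Fgf21 is also a target of PPARα in fasting. LECT2 is a secreted factor that rises in obesity and fatty liver. ANGPTL4 and ANGPTL8 inhibit lipoprotein lipase, ANGPTL4 in the fasted state and ANGPTL8 in the fed state. Fetuin-A (Ahsg) and fetuin-B (Fetub) are abundant plasma proteins of the cystatin superfamily. Selenoprotein P (Selenop) carries selenium from the liver to other tissues.

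The members spanned a wide range of levels. In NC mice the mean level was highest for Ahsg at 3078 ± 510.7 FPKM (SD, n = 6) and lowest for Gdf15 at 3.462 ± 1.495 FPKM. Between them stood, in falling order, Selenop, Fetub, Angptl4, Lect2, Fgf21, Angptl8 and Enho. The ranges of the 6 NC mice overlapped between Fgf21 and Angptl8 and between Angptl8 and Enho, and no other neighbors in this order overlapped. In HFD mice Lect2 stood above Angptl4 and Gdf15 stood above Fgf21 and Enho. The last 4 genes in the HFD order, Angptl8, Gdf15, Fgf21 and Enho, each overlapped the next, as did Ahsg with Selenop and Fetub with Lect2. In SZ-A mice the order again ended with Gdf15, and every neighbor from Lect2 down to Gdf15 overlapped the next.

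**Figure D1:**
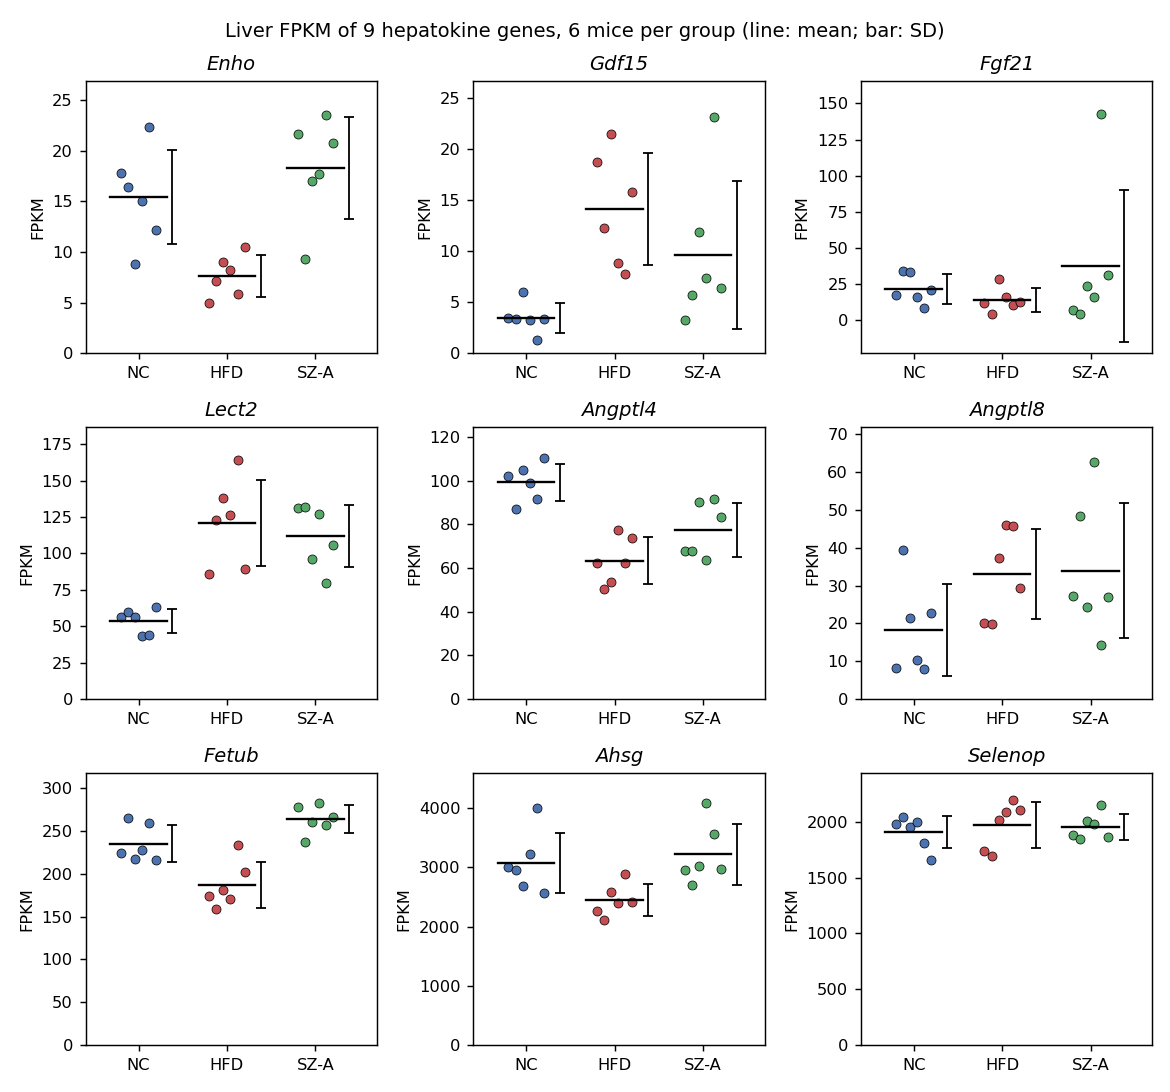
Level of each hepatokine gene in liver (y axes, FPKM, linear, scale set per gene) in NC, HFD and SZ-A mice; points are mice (n = 6 per group), lines are means and bars are SD. Gdf15, Lect2 and Angptl4 show no overlap between NC and HFD mice, Fetub shows none between HFD and SZ-A mice, and a single SZ-A mouse has 142.6 FPKM of Fgf21.

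HFD against NC asks how the diet changed each gene. A gene was called when limma gave a Benjamini-Hochberg adjusted p under 0.05 over all genes tested and the fold change exceeded 1.2, with fold changes on the log2(FPKM + 0.1) scale. Of the 9 hepatokine genes 5 were called, against a background of 20.2% of all genes tested. Gdf15 and Lect2 were higher in HFD mice, where the background was 10.7%, and Enho, Angptl4 and Fetub were lower, where it was 9.49%. The groups did not overlap for Gdf15, Lect2 and Angptl4, which held for 10.5% of all genes tested. The median log2 fold change of the 9 was -0.32 and that of all genes was -0.033. When each mouse was scaled to a common sum of FPKM, the median of all genes moved to 0.154, and the calls over all genes went from 1092 higher and 970 lower to 2100 higher and 334 lower. Relative to the median, Enho was at -0.96, Angptl4 at -0.63 and Fetub at -0.31 as deposited, and at -0.96, -0.62 and -0.30 under the common sum. All 5 called genes kept their direction under each scaling, but Fetub was not called under the common sum and Angptl8 was.

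SZ-A against HFD asks what the treatment changed. None of the 9 genes was called by limma, against a background of 0.147%, or 15 genes in all (0.0783% higher and 0.0685% lower), and 4 of the 9 had an unadjusted p under 0.05. When whole fragments were tested with voom, 1 of the 9 was called, namely Fetub, beside 32 of all genes tested (0.313%). Under the common sum Enho and Fetub were called, both higher, while the median of all genes moved to -0.149 and the calls over all genes went from 8 higher and 7 lower to 10 higher and 206 lower. The HFD mice serve in both of these comparisons, so the fold changes against NC and of SZ-A share those 6 mice and are given side by side. The third comparison, SZ-A against NC, called 2 of the 9, Lect2 higher and Angptl4 lower, against a background of 9.60% (5.31% higher and 4.30% lower). There only Lect2 of the 9 had groups that did not overlap, which held for 5.50% of all genes tested. The median log2 fold change of the 9 was 0.29 in SZ-A against HFD and 0.17 in SZ-A against NC, beside all-gene medians of 0.025 and -0.006.

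**Figure D2:**
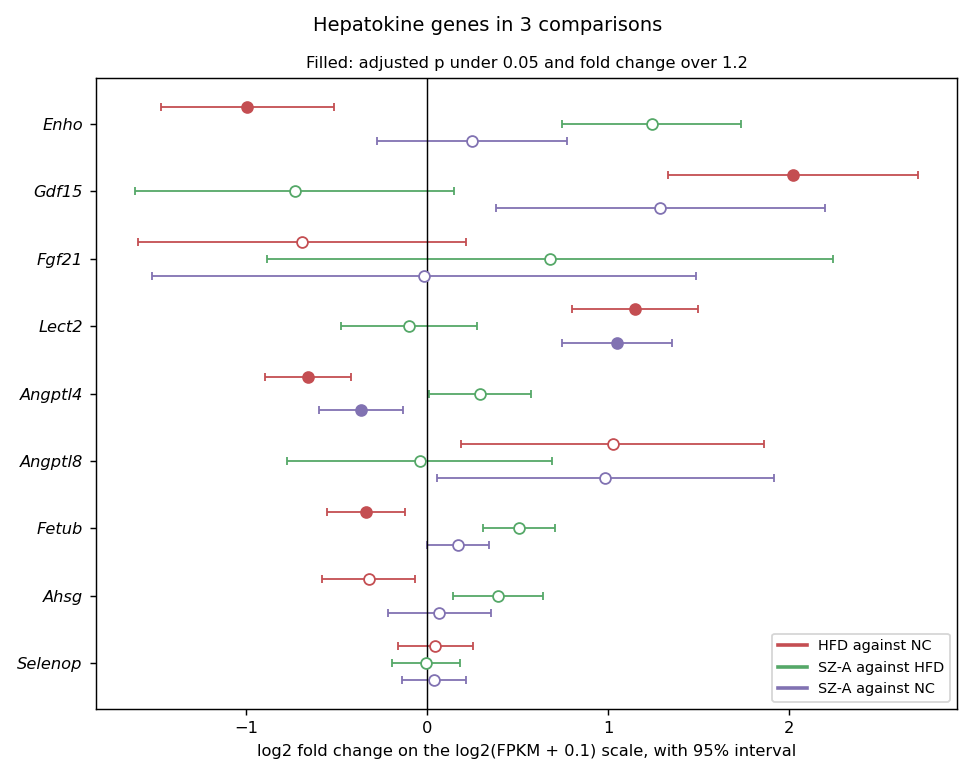
Log2 fold change of each hepatokine gene on the log2(FPKM + 0.1) scale (x axis) with its 95% interval, in HFD against NC, SZ-A against HFD and SZ-A against NC; filled points were called (fold over 1.2 and adjusted p below 0.05). Filled points stand at 5 genes in HFD against NC and at 2 in SZ-A against NC, and none in SZ-A against HFD, where the intervals of Enho, Fetub, Ahsg and Angptl4 lie above 0.

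Enho was lower in HFD mice than in NC mice, and SZ-A mice were not called different from either group. The gene lies on the minus strand of chromosome 4 (chr4:41638144-41640324, GRCm38). Its level in NC mice had a lowest value of 8.835, a median of 15.71 and a highest value of 22.34 FPKM. In HFD mice these were 4.96, 7.669 and 10.51 FPKM, and in SZ-A mice 9.293, 19.24 and 23.49 FPKM. The HFD mice lay below the NC mice apart from the NC mouse at 8.835 FPKM, which fell inside the HFD range. Enho fell by 0.99 on the log2 scale in HFD against NC (SE 0.221, adjusted p = 0.00699), to 0.502 times the NC level.

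In SZ-A against HFD, Enho was 2.36-fold higher (log2 fold change 1.24, 95% interval 0.75 to 1.73), and 5 of the 6 SZ-A mice exceeded every HFD mouse. The sixth, SZ-A2, had 9.293 FPKM. The adjusted p was 0.0557, just over the threshold, and Enho ranked 22 by p among the 10216 genes. Over the 23 alternative settings the log2 fold change stayed between 1.06 and 1.42 and the adjusted p ran from 0.00537 to 0.146. Leaving out SZ-A2 gave the lowest of these p-values. SZ-A and NC mice did not differ past the threshold, with a log2 fold change of 0.25 and a 95% interval of -0.28 to 0.77. The antisense gene Gm12406 and the gene Dnaic1 overlap Enho on the other strand. The library kit does not mark strand. The mean levels of these genes were 0.0342 and 0.0346 FPKM, which cannot show how fragments in the shared bases were counted.

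**Figure D3:**
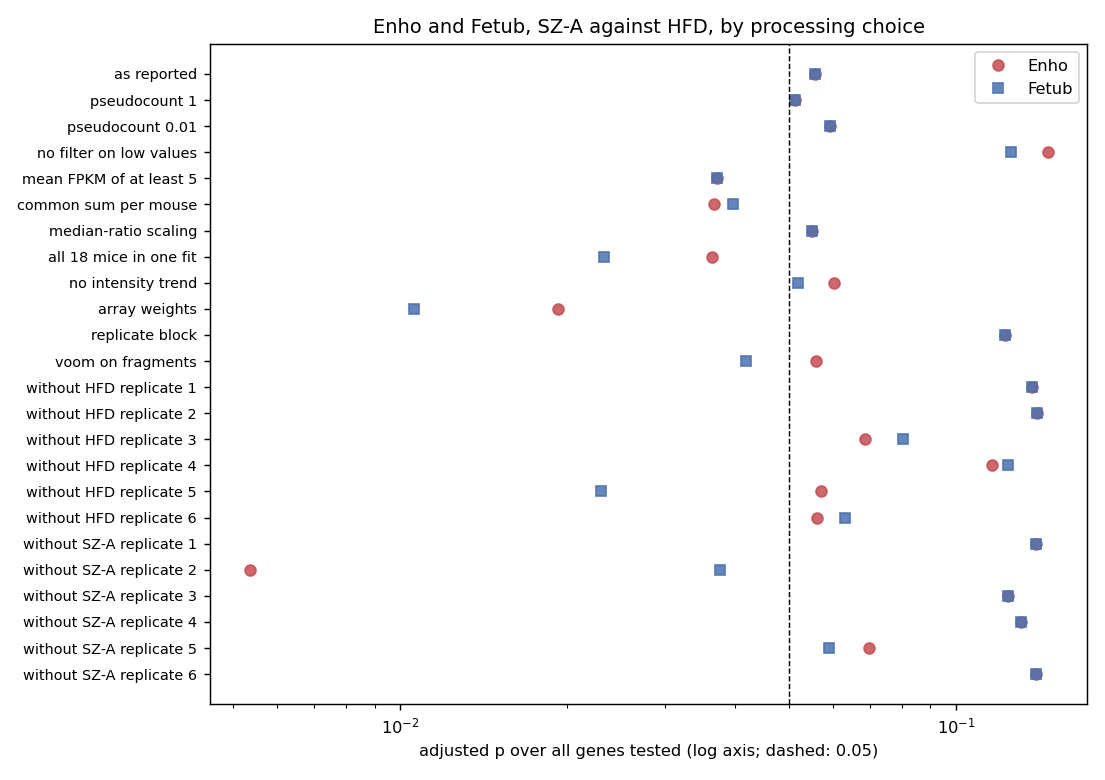
Adjusted p of Enho (circles) and Fetub (squares) in SZ-A against HFD (x axis, log scale) under each processing choice (y axis); the dashed line marks 0.05. As reported both stand at 0.0557, and across the alternatives they fall on either side of the line, from 0.00537 to 0.146 for Enho and from 0.0106 to 0.140 for Fetub.

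The nuclear receptor list holds 12 genes tied to the control of Enho, and all 12 were tested. Calls in this and later lists stand beside shares of 20.2% of all genes in HFD against NC and 9.60% in SZ-A against NC. No list was tested as a set. In HFD against NC the median log2 fold change of the 12 was 0.21, and 4 of them were called, all higher. They included the sterol transporters Abcg5, at 21.2 ± 4.63 FPKM in NC and 36.3 ± 13.2 FPKM in HFD mice (log2 fold change 0.73, adjusted p = 0.0224), and Abcg1 (0.72, adjusted p = 0.00876). None was called in SZ-A against HFD.

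Gdf15 was the member with the largest fold change of the 9 in HFD against NC. It lies on the minus strand of chromosome 8 (chr8:70629393-70632456). NC mice had a lowest, median and highest level of 1.334, 3.331 and 6.024 FPKM, and HFD mice 7.725, 14.0 and 21.51 FPKM. Every HFD mouse was thus above every NC mouse. The fitted difference between the groups was 4.06-fold (log2 fold change 2.02, SE 0.321, adjusted p = 0.000971). The corresponding values in SZ-A mice were 3.243, 6.87 and 23.14 FPKM, and 4 of the 6 lay below every HFD mouse while 1, SZ-A5, lay above all of them. The log2 fold change in SZ-A against HFD was -0.73, with a 95% interval of -1.62 to 0.15 and an adjusted p of 0.428. Without SZ-A5 it was -1.04 (adjusted p = 0.159). Against NC, SZ-A mice had a log2 fold change of 1.29, which was not called (adjusted p = 0.0713) but was called with all 18 mice in one fit (0.0422) and without SZ-A1 (0.0351). Macrophage markers moved in the same comparison as Gdf15: the 11 markers summed to 173 to 329 FPKM in NC, 309 to 499 FPKM in HFD and 274 to 400 FPKM in SZ-A mice. The NC sum of 329 FPKM was that of NC6, the mouse with the high-fat diet label. The part of these markers in the Gdf15 values was not tested.

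Fgf21 varied more between mice of a group than any of the other 8 genes in HFD and SZ-A mice, with coefficients of variation of 59.6% and 140%. It lies on the minus strand of chromosome 7 (chr7:45613886-45615490). The lowest, median and highest levels were 8.052, 19.12 and 34.19 FPKM in NC, 4.21, 12.01 and 28.76 FPKM in HFD, and 4.027, 19.97 and 142.6 FPKM in SZ-A mice. The highest value belonged again to SZ-A5, and the other 5 SZ-A mice reached 31.1 FPKM at most. The 3 groups overlapped throughout. The log2 fold change was -0.69 in HFD against NC (adjusted p = 0.264) and 0.68 in SZ-A against HFD, where the 95% interval ran from -0.89 to 2.24 (adjusted p = 0.709). Without SZ-A5 the latter was 0.098. These data leave room for a change of more than 2-fold in either direction against NC in SZ-A mice, since that interval ran from -1.52 to 1.49.

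The promoter windows of Fgf21, Angptl8 and Gdf15, from 250 bases before to 50 bases after the start, are shown because stress, diet and fasting factors are known to act on these genes. They come from RefSeq for GRCm38.p6, written 5′ to 3′ on the gene's strand at chr7:45615441-45615740 (minus), chr9:21835260-21835559 (plus) and chr8:70632407-70632706 (minus), with motif matches in capitals.
Fgf21: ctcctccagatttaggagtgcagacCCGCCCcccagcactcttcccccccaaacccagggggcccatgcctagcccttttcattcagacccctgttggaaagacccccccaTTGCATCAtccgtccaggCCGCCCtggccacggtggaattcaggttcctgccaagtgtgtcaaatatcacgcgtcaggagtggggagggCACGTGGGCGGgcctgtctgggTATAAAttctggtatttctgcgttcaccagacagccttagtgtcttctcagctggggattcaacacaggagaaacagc
Angptl8: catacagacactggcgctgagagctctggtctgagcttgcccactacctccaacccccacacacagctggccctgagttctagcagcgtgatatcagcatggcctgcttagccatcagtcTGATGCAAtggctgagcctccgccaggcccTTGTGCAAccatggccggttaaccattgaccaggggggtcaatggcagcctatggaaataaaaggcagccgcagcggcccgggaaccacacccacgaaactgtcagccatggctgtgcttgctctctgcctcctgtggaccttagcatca
Gdf15: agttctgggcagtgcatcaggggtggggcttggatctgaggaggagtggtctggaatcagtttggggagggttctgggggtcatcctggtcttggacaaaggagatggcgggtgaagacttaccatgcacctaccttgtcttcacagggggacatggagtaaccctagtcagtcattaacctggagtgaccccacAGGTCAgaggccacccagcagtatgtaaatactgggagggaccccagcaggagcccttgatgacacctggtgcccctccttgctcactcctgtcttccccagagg

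The CHOP-ATF4 element TTGCATCA, searched on both strands, was found 139 bases before the start of Fgf21 and, as TGATGCAA, 130 bases before that of Angptl8. It was present in 0.895% of the 32851 RefSeq promoter windows of this length. The Fgf21 window also held the E-box CACGTG at -50 (7.15% of windows), which overlaps a GC box GGGCGG at -45. More GC boxes, read on this strand as CCGCCC, stood at -225 and -121 (35.7% of windows hold 1 or more), and a TATAAA at -28 (13.6%). In Angptl8 the C/EBP letters TTGCNNAA matched on the other strand at -100, shown as TTGTGCAA (10.8%). The Gdf15 window shown held the nuclear receptor half-site AGGTCA at -55 (16.3%). RefSeq lists another Gdf15 start, and its window (chr8:70632046-70632345), not printed, held an E-box CACGTG at -83. The searches for the DR1 motif (a direct repeat of the half-site with a spacer), TTCNNNGAA, TGACGTCA, TGTTTAC and the HNF1 motif gave no match in these 3 windows, and the letters occurred in 0.0396%, 8.3%, 1.79%, 3.65% and 0.399% of all windows. A match is a stretch of letters and not a measured binding site.

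Within groups, the mice with more Fgf21 also had more Gdf15. Pearson's r of log2(FPKM + 0.1) over the 18 mice was 0.29, and 0.75 after each group's mean was subtracted, in mice that include SZ-A5. The libraries were made with the same kit, and their preparation batches are not named. In SZ-A5 the other stress genes stood out too, a comparison made after this mouse had been picked for its Fgf21 level. It had the highest level of the 6 SZ-A mice for 12 of the 14 tested genes of the integrated stress response list, while it was the highest for 24.5% and the lowest for 24.6% of all genes tested. Atf4, the central factor of that response, was at 58.3 FPKM against 26.8 to 40.6 FPKM in the other 5. Atf5 was at 384 FPKM against 102 to 186 FPKM, and Chac1, which degrades glutathione, at 16.5 FPKM against 1.02 to 5.02 FPKM. For Atf5 the SZ-A5 level was within 1 SD of the NC mean, 315 ± 74.1 FPKM, while HFD mice averaged 113 ± 31.5 FPKM. Atf4 and Chac1 averaged less in NC mice, 31.2 ± 9.2 and 0.376 ± 0.186 FPKM. Of the 19 PPARα targets, SZ-A5 was the highest for 2 and the lowest for 7. Of the 15 tested insulin and carbohydrate genes it was the highest for 4, among them Igfbp1 at 436 FPKM against 9.45 to 43.9 FPKM, and the lowest for 8, among them Srebf1. NC mice averaged 227 ± 225 FPKM of Igfbp1. Among the hepatokine genes SZ-A5 was also the highest for Enho, Angptl4 and Selenop and the lowest for Angptl8 and Lect2.

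**Figure D4:**
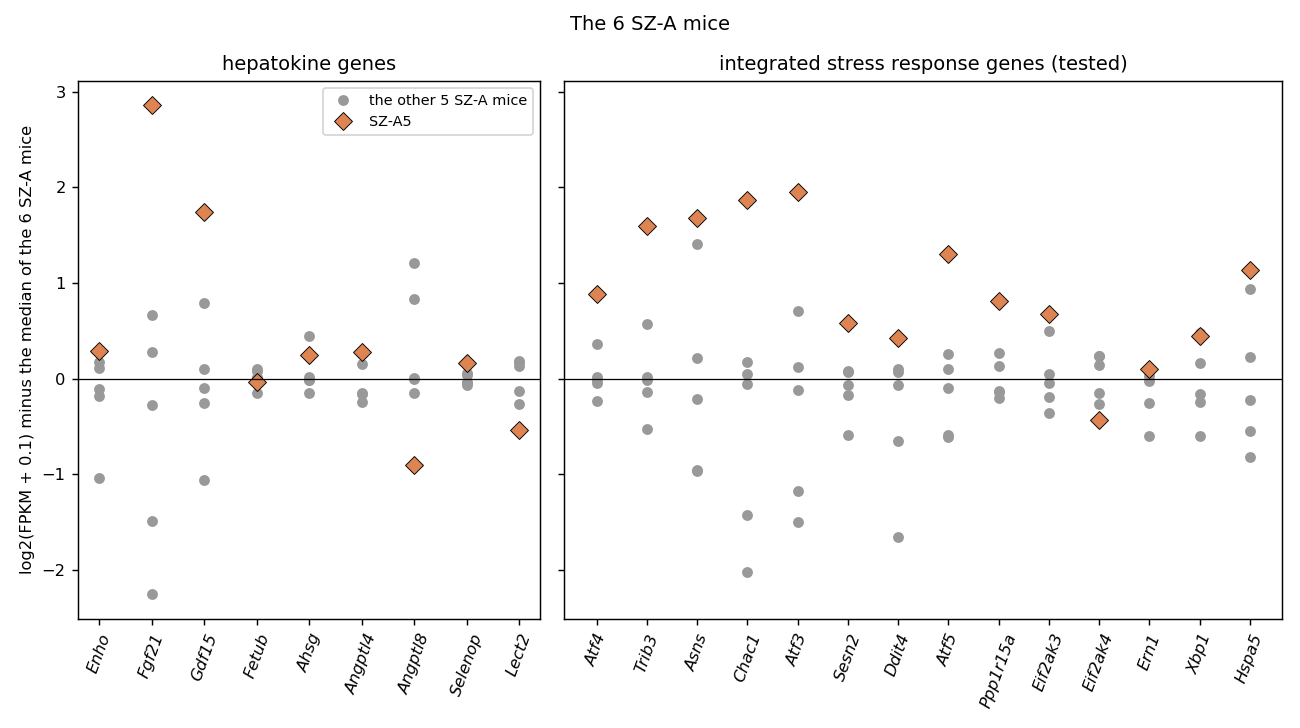
Level in each SZ-A mouse as log2(FPKM + 0.1) minus the median of the 6 SZ-A mice (y axis) for the hepatokine genes (left) and the tested genes of the integrated stress response (right); diamonds are SZ-A5 and gray points are the other 5 mice. The diamond is the highest point for 5 of 9 and for 12 of 14 genes.

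Over the whole groups, the integrated stress response list gave 3 higher and 2 lower calls among 14 tested genes in HFD against NC. Chac1 averaged 0.376 ± 0.186 FPKM in NC and 4.41 ± 1.58 FPKM in HFD mice, a rise of 3.26 on the log2 scale (adjusted p = 2.78e-05), and Atf3, a stress-induced transcription factor, rose by 2.40. Asns, asparagine synthetase, fell by 3.52 on the log2 scale, from 4.33 to 0.326 FPKM, and Atf5 fell by 1.49 (adjusted p = 0.000266). None of the 14 was called in SZ-A against HFD. All 19 PPARα targets were tested, and in HFD against NC 1 was called higher and 8 lower, with Cyp4a14 (log2 fold change -1.35) and Cyp4a10 (-0.998), fatty acid ω-hydroxylases, and Ehhadh (-1.15), a peroxisomal oxidation enzyme, as those with the largest changes. Under the common sum the split was 2 higher and 4 lower. Again none was called in SZ-A against HFD. In SZ-A against NC 2 PPARα targets were higher and 5 lower, among them Pdk4 (-1.58), a brake on pyruvate oxidation.

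Lect2 was higher than in NC mice in HFD mice and in SZ-A mice. It lies on the minus strand of chromosome 13 (chr13:56542464-56548502). The lowest, median and highest levels were 43.46, 56.25 and 63.18 FPKM in NC, 86.05, 124.5 and 163.8 FPKM in HFD, and 79.8, 116.1 and 131.6 FPKM in SZ-A mice. No NC mouse reached the lowest mouse of the other groups. The log2 fold change was 1.15 in HFD against NC (SE 0.161, adjusted p = 0.00048) and 1.05 in SZ-A against NC (SE 0.142, adjusted p = 0.00151). In SZ-A against HFD it was -0.10, with a 95% interval of -0.47 to 0.28. Lect2 was called in both comparisons with NC under each of the 23 alternative settings.

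Angptl4 was lower in HFD mice, and in SZ-A mice it lay between the other groups. It is on the minus strand of chromosome 17 (chr17:33773750-33781575). The lowest, median and highest levels were 87.04, 100.6 and 110.4 FPKM in NC, 50.3, 62.46 and 77.27 FPKM in HFD, and 63.51, 75.78 and 91.54 FPKM in SZ-A mice. All HFD mice were below all NC mice, and 3 SZ-A mice were above all HFD mice. Angptl4 fell by 0.66 on the log2 scale in HFD against NC (SE 0.111, adjusted p = 0.0013). The difference of SZ-A from HFD was 0.29 (95% interval 0.01 to 0.57, adjusted p = 0.317). SZ-A mice were below NC mice by a log2 fold change of -0.37 (adjusted p = 0.0469), a call that was lost under 12 of the 23 alternatives, among them leaving out NC6 (-0.34, adjusted p = 0.0847).

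Angptl8 had wide and overlapping ranges. It is on the plus strand of chromosome 9 (chr9:21835510-21837347), and Dock6 spans it on the other strand at a mean of 1.29 FPKM. NC mice ran from 7.924 through a median of 15.9 to 39.38 FPKM, HFD mice from 19.87 through 33.42 to 46.1 FPKM, and SZ-A mice from 14.42 through 27.1 to 62.63 FPKM. Of the NC mice 3 fell inside the HFD range, and in each group the highest mouse had 2.32 to 4.97 times the level of the lowest. The log2 fold change was 1.02 in HFD against NC (95% interval 0.18 to 1.86, adjusted p = 0.0779) and 0.98 in SZ-A against NC (adjusted p = 0.172). SZ-A and HFD mice differed by -0.04, with a 95% interval of -0.77 to 0.69. Angptl4 and Angptl8 thus had fold changes of opposite sign in HFD against NC, of which that of Angptl4 was called.

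Among 16 tested genes of the lipoprotein lipase system, 4 were called higher and 4 lower in HFD against NC, and 6 and 2 under the common sum. Lpl, the lipase itself, averaged 1.37 ± 0.464 FPKM in NC and 3.57 ± 1.23 FPKM in HFD mice (higher by 1.31 on the log2 scale, adjusted p = 0.0017). Of the activators of this lipase, Apoa5 fell by 0.73 on the log2 scale, from 639 to 387 FPKM. Apoc2 fell by 1.56 but was at a low level, 2.72 FPKM in NC, 0.919 FPKM in HFD and 1.44 FPKM in SZ-A mice. Apoc1 and Apoc3 averaged 2790 and 1550 FPKM in NC mice. The cause of the low Apoc2 level was not tested. None was called in SZ-A against HFD, where Lpl averaged 1.61 ± 0.542 FPKM in SZ-A mice (-1.10, adjusted p = 0.0865). The common sum gave lower calls there for Lpl and Pcsk6, a proprotein convertase. In SZ-A against NC 1 was higher and 3 were lower: Apoc2 (-0.96), Apoa5 (-0.61) and Sdc1 (-0.54), a lipoprotein remnant receptor. The 7 adipocyte markers summed to 34.0 to 116 FPKM in NC, 53.5 to 164 FPKM in HFD and 8.28 to 56.9 FPKM in SZ-A mice. Much of these sums was Cidec and Cfd, whose means moved in opposite directions from NC to HFD mice. Cfd averaged 2.91 FPKM in NC, 52.4 FPKM in HFD and 7.54 FPKM in SZ-A mice. Of the 3 tested, Cfd and Fabp4 were called higher in HFD against NC. Cidec was not called there (54.4 FPKM in NC and 30.5 FPKM in HFD mice) and was called lower in SZ-A against NC (-1.76, adjusted p = 0.0438). Cfd was called lower in SZ-A against HFD under the common sum alone of the 3 scalings. Plin1 was under 0.1 FPKM in all HFD and SZ-A mice. Their part in the values of Lpl and the Angptl genes was not tested.

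The insulin and carbohydrate list gave 4 higher and 4 lower calls among 15 tested genes in HFD against NC. Srebf1, the insulin-responsive lipogenic factor, averaged 6.96 FPKM in NC and 20.9 FPKM in HFD mice, a rise of 1.53 on the log2 scale (SE 0.343, adjusted p = 0.00752). Igfbp1, a gene that insulin represses, fell by 2.16 on the log2 scale (SE 0.671, adjusted p = 0.0367). Its level scattered widely in NC mice, at 227 ± 225 FPKM, beside 33.1 ± 12.9 FPKM in HFD mice. None was called in SZ-A against HFD, with 14 of 15 fold changes above 0 and a median of 0.33 as deposited. Under the common sum the median was 0.155 and Insig2, Txnip and Mlxipl were below 0 beside Srebf1. SZ-A mice had 4 higher and 2 lower calls against NC, among them Pklr, the liver pyruvate kinase, at 1.08 and Insig2, a brake on SREBP, at -1.45.

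The 2 fetuin genes lie side by side on the plus strand of chromosome 16, Ahsg at chr16:22891277-22899449 and Fetub at chr16:22918334-22939778, with 18884 bases between them. Both were lower in the mean of HFD mice and higher in that of SZ-A mice. Fetub had a lowest, median and highest level of 216.3, 226.1 and 265.1 FPKM in NC, 158.7, 177.8 and 233.5 FPKM in HFD, and 237.5, 263.4 and 283.2 FPKM in SZ-A mice. Of the HFD mice 5 were below all NC mice, and the remaining one, HFD5, lay inside the NC range. All 6 SZ-A mice were above all HFD mice, which held for 1.28% of all genes tested in either direction. Fetub fell by 0.34 on the log2 scale in HFD against NC (SE 0.101, adjusted p = 0.0306) and was 1.42-fold higher in SZ-A against HFD (log2 fold change 0.51, 95% interval 0.31 to 0.71, adjusted p = 0.0557). SZ-A and NC mice differed by 0.17 (adjusted p = 0.201).

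Fetub ranked 17 by p in SZ-A against HFD, and over the alternatives its adjusted p ran from 0.0106 to 0.140. Leaving out HFD5 gave an adjusted p of 0.0230. The call in HFD against NC was lost under 9 of the 23 alternatives, with log2 fold changes of -0.41 to -0.15 over all of them. For Ahsg the lowest, median and highest levels were 2569, 2988 and 4001 FPKM in NC, 2120, 2401 and 2895 FPKM in HFD, and 2709, 3000 and 4085 FPKM in SZ-A mice. The HFD range overlapped both of the others. The log2 fold changes were -0.32 in HFD against NC (adjusted p = 0.0703) and 0.39 in SZ-A against HFD (adjusted p = 0.15), with 5 of 6 SZ-A mice above every HFD mouse. Without NC6, Ahsg was called in HFD against NC (-0.37, adjusted p = 0.0482). The antisense gene CT027991.1 overlaps Ahsg at a mean of 1.02 FPKM.

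The fetuins belong to a cluster with other cystatin-type genes. Hrg, histidine-rich glycoprotein, follows Fetub after 11293 bases and averaged 355 ± 41.2 FPKM in NC, 449 ± 48.6 FPKM in HFD and 479 ± 67.4 FPKM in SZ-A mice. It was called higher in HFD against NC (log2 fold change 0.34, adjusted p = 0.0277), where Fetub was called lower by a similar size. The kininogen genes Kng2 and Kng1 farther along were not called in any of the 3 comparisons. Of the 5 tested genes of the cystatin list 2 were called in HFD against NC, both higher: Hrg and Cstb, cystatin B, at 0.53. None was called in SZ-A against HFD, and in SZ-A against NC 1 was, Hrg at 0.43. Across the 18 mice the r of Ahsg and Fetub was 0.82, and 0.65 within groups.

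Some hepatocyte markers were called lower in the same comparison as Fetub and Enho. Their summed level was 54500 to 76400 FPKM in NC, 39000 to 61900 FPKM in HFD and 44400 to 73700 FPKM in SZ-A mice. In HFD against NC 4 of the 9 were called, all lower (3 under the common sum), and 2 of the 9 had fold changes above 0. The called genes included Tat (log2 fold change -1.47), Cps1 (-1.40) and Apoa1 (-0.91). All 9 had fold changes above 0 in SZ-A against HFD as deposited, with a median of 0.23, and none was called. Scaled to the common sum, Alb, Apoa2 and Ttr were below 0, the median was 0.052 and Apoa1 was called higher. Stellate cell markers gave 5 higher and no lower calls among 9 in HFD against NC, and macrophage markers 5 higher and none lower among 10. In SZ-A against HFD a single marker of these lists was called, Cd68, which was lower by 0.64 (adjusted p = 0.0451). The common sum added lower calls there for Adgre1, Lyz2 and the stellate marker Col1a1. Endothelial markers gave 1 call among 7 in HFD against NC, Lyve1, higher by 0.91. No call was made there among 2 cholangiocyte, 1 B cell, 4 red blood cell and 1 pancreas acinar markers tested, and no T cell marker reached a mean of 1 FPKM. The part of these markers in the hepatokine values was not tested.

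Selenop was not called in any of the 3 comparisons. It is on the plus strand of chromosome 15 (chr15:3268547-3280508), where its last 439 bases overlap Ccdc152 on the other strand (mean 6.51 FPKM). The mean was 1908 ± 145 FPKM in NC, 1971 ± 207.6 FPKM in HFD and 1955 ± 118 FPKM in SZ-A mice, and the ranges overlapped. The 95% intervals were -0.16 to 0.25 in HFD against NC, -0.20 to 0.18 in SZ-A against HFD and -0.14 to 0.22 in SZ-A against NC, on the log2 scale. Around it, 25 genes of selenoprotein synthesis and supply were tested. In HFD against NC 4 of them were called higher and 2 lower, beside 20.2% of all genes called. Under the common sum 9 were called higher and 0 lower, where 86.3% of the calls over all genes were higher. Dio1, the deiodinase that activates thyroid hormone, averaged 29.2 ± 12.6 FPKM in NC and 88.5 ± 6.3 FPKM in HFD mice (higher by 1.68 on the log2 scale, adjusted p = 0.000163). Selenon and Gpx1, a glutathione peroxidase, were higher by 0.69 and 0.59. None was called in SZ-A against HFD (Selenon, lower, under the common sum). In SZ-A against NC 5 were higher, among them Dio1 (1.68), Msrb1 (0.61) and Gpx1 (0.49), and 1 was lower.

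Of 25 tested genes on a list of other hepatokines, 6 were called higher and 3 lower in HFD against NC. Under the common sum 10 were higher and 3 lower. For this list and the receptors below, the share over all genes was 20.2%, and 23.8% under the common sum. Lcn2, lipocalin-2, was higher by 4.34 on the log2 scale, at 54.6 ± 57.7 FPKM in HFD and 2.24 ± 1.87 FPKM in NC mice. Lepr, the leptin receptor with its secreted form, fell by 3.06 on the log2 scale, from 8.41 ± 6.39 FPKM in NC to 0.73 ± 0.297 FPKM in HFD mice. Bmp6, an iron-sensing ligand, fell by 1.12. None was called in SZ-A against HFD (Sparc, lower, under the common sum), and 3 were higher and 2 lower in SZ-A against NC, with Lcn2 at 3.22, Lepr at -2.70 and Tsku, tsukushi, at 1.35. Among 10 tested receptors of hepatokines, Lrp1, an endocytic receptor, was called higher (0.51, adjusted p = 0.0338) and Klb was called lower (-0.42, adjusted p = 0.0292) in HFD against NC. Under the common sum 4 receptors were called higher and none lower, so the Klb call was lost. No receptor was called in the other 2 comparisons.

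The genes with the most similar pattern over the 18 mice are given as a description, by Pearson's r of log2(FPKM + 0.1) among the tested genes. For Enho these were Gm16548 (r 0.84), mt-Tp (0.82) and Zbtb8os (0.82), and for Fgf21 they were Kdm4a (0.86), Crp (0.81) and Gpr107 (0.81). Gdf15 was closest to Loxl1 (0.87), Apobec1 (0.86) and Endod1 (0.86). Lect2 had the closest partners of the 9, Mgmt, Galm and Rgn, each at 0.93, and 0.74 to 0.79 within groups. Fetub was closest to 1300017J02Rik (0.87), Pfdn6 (0.85) and Serpina1a (0.85), and Ahsg to AC115954.1 (0.87), Apoa1 (0.86) and Ywhae (0.85). Angptl4 was closest to Mttp (0.87), the transfer protein of lipoprotein assembly, Copb1 (0.86) and Ice2 (0.86). For Angptl8 the closest were Ifit3b (0.87), Igfals (0.85) and Slc31a1 (0.84), and for Selenop Tram1 (0.82), Hsp90b1 (0.80) and Tmem33 (0.79). Between members, Angptl8 and Lect2 had an r of 0.76 (0.68 within groups), and Angptl4 and Lect2 of -0.79 (-0.43 within groups).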

How the data were processed

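Total RNA of whole liver was selected for poly-A RNA, made into libraries with a kit that does not mark strand and sequenced as paired-end reads. Per the submitters' processing notes and the methods, reads were aligned to mm10 (GRCm38) with HISAT2 2.0.5, and featureCounts 1.5.0-p3 is named for counting. The authors deposited 1 table of FPKM with gene lengths and positions for 18 mice, and every per-sample column of it was used. The deposited FPKM times gene length gave whole fragments within 0.05 for all values. The library size behind the deposited FPKM was 0.9325 to 1.0248 times the sum over genes in NC, 0.9983 to 1.1414 times in HFD and 0.9718 to 1.0468 times in SZ-A mice.

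Groups and replicate numbers came from the sample titles. Because the deposited unit is FPKM, the test was run on a log scale, and voom on the whole fragments was the alternative on counts. DESeq2, which the authors ran, was not run here. A separate model without covariates was fitted to the 12 mice of each comparison, with limma 3.58.1 in R 4.3.3 (lmFit, eBayes with an intensity trend) on log2(FPKM + 0.1). Genes with a mean of at least 1 FPKM over all mice (10216) entered the test, with Benjamini-Hochberg adjustment over all of them. The code was tested on simulated data. P-values set the difference of group means against the spread between mice, which limma moderates over genes. The labels do not say whether mice shared a cage or litter. No 2 mice of a group held the same library. Alternatives changed the pseudocount, filter, scaling, fit, tool or call rule, or left out a mouse.

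The members and the gene lists were chosen with earlier results of these data known. Results of some list genes are not reported here. All 9 members are named, along with up to 3 called genes with the largest fold change per list and comparison, other genes of the fetuin cluster, some further genes chosen after their values were seen (Atf4 and Atf5 among them) and the 3 genes with the highest correlation to each member. Promoters were read from RefSeq. Python 3.11.15, numpy 2.4.6, pandas 2.3.3 and matplotlib 3.10.9 were used for the rest.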

Additional observations from a re-analysis of the deposited data

Results flagged for a closer look

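Among the 27 combinations of a hepatokine gene and a group that were checked, 1 had a mouse far from the rest of its group. In SZ-A mice the highest Fgf21 level, 142.6 FPKM in SZ-A5, was separated from the next mouse by more than Dixon's critical share of the range for 6 samples. The gap was taken on the FPKM scale and not on the log2 scale of the other tests. At the critical share chance flags about 1 group in 20, so the count of 1 flag among 27 is near what chance gives. That count does not use the size of the gap, which was 0.805 of the range for Fgf21 in SZ-A mice. Whether the rate of 1 in 20 holds for FPKM values was not tested, nor was the gap on the log2 scale. The Fgf21 log2 fold change in SZ-A against HFD was 0.68 with this mouse and 0.098 without it.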

How the results depend on the processing

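Of the 621 values of single hepatokine genes recomputed under 23 alternatives per comparison, 557 kept their direction and their side of the threshold, 19 passed it only under the alternative, 21 no longer passed it and 24 changed sign. Gdf15, Lect2, Enho and Angptl4 in HFD against NC and Lect2 in SZ-A against NC were called under every alternative fit. The 9 genes gave 2 calls in HFD against NC at a fold change over 2. In SZ-A against HFD there were 2 calls instead of 0 (Enho and Fetub) with a mean of at least 5 FPKM or a common sum per mouse. The share called over all genes was then 0.502% and 2.11%, beside 0.147% as reported. The same 2 were called with all 18 mice in one fit (0.343% of all genes) and with array weights (2.28%). Voom on fragments gave 1 call, Fetub (0.313%). In SZ-A against NC there was 1 call instead of 2 without a filter (2.07% of all genes) and with the common sum (7.79%). The same held without the intensity trend (9.07%) and at a fold change over 2. There were 3 calls, with Gdf15 added, with all 18 mice in one fit (11.7%). As reported the share was 9.60%. Gdf15 was also called there without SZ-A1.

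Leaving out each mouse in turn gave 4 to 6 calls in HFD against NC, beside 16.1% to 21% of all genes. In SZ-A against HFD it gave 0 to 2 (2 without SZ-A2, 1 without HFD5), beside 0.0196% to 0.48%. In SZ-A against NC it gave 1 or 2, beside 5.88% to 11.5%. Signs changed only among differences that were not called. With array weights Selenop was at -0.007 in HFD against NC and at 0.022 in SZ-A against HFD, and Angptl8 was at 0.053 in the latter. With a pseudocount of 1 Fgf21 in SZ-A against NC was at 0.016. With each mouse left out in turn, the ranges that crossed 0 were -0.249 to 0.173 for Angptl8 and -0.050 to 0.025 for Selenop in SZ-A against HFD, and -0.596 to 0.426 for Fgf21, -0.006 to 0.145 for Ahsg and -0.003 to 0.057 for Selenop in SZ-A against NC.

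The replicate numbers gave no pairing: correlations of same-numbered mice ran from -0.117 to 0.292, and 1, 1 and 3 of 6 mice correlated best with their own number. With the replicate number as a block there were 4 calls in HFD against NC, 0 in SZ-A against HFD and 1 in SZ-A against NC. The shares over all genes were then 16.1%, 0% and 9.03%. The cause of these changes was not tested. Depth limits the low genes most: Gdf15 had 40 to 205 fragments in NC mice.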
